A study of Mus musculus with 12 samples.

Results

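The genes described are 10 members of the Notch pathway: the receptors Notch1, Notch2 and Notch3, the ligands Jag1 and Jag2, and the target genes Hes1, Hey1, Hey2, Heyl and Nrarp. They were taken by gene symbol from the 23282 symbols counted in mouse C22 cells, and all 10 were found. C22 is an immortalised clone of club cells, the secretory cells of the small airways, from mice that carry the H-2Kb-tsA58 transgene, so every library came from a single cloned line. Differentiated cells were serum-starved for a short time and fell into 4 groups of 3 libraries: negative control siRNA (NC), knockdown of Pdcd5 by siRNA (siPdcd5), and each of these treated with TGF-β1 at 20 ng/ml over 24 h (NC + TGF-β1 and siPdcd5 + TGF-β1). The study asked how loss of PDCD5, a regulator of apoptosis, alters the transcriptional response of club cells to TGF-β1, the main fibrogenic cytokine. The labels do not say whether the replicates were separate cultures, so the p-values measure the spread between these libraries, which may be technical.

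Notch receptors are cut by furin during their maturation, and a Jagged or Delta-like ligand on a neighbouring cell then triggers cleavage by an ADAM protease and by γ-secretase. The freed intracellular domain joins the DNA-binding protein RBPJ and a Mastermind coactivator on target genes. HES and HEY proteins are transcriptional repressors made from such targets, and NRARP is a target that binds the intracellular domain and limits the signal. In the airway, Notch signalling is known for setting the choice between secretory and ciliated cells.

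TGF-β1 acts through SMAD proteins and Notch through RBPJ, and the promoters of the 3 members called in at least 1 of the 4 comparisons between 2 groups are shown to place the short sequences known for these factors near each start. Each runs 5′ to 3′ on the gene's strand from 250 bases before to 50 bases after the RefSeq start, in GRCm38.p6. Capitals mark the SMAD box CAGAC or its reverse complement GTCTG, and would mark the RBPJ core TGGGAA or its reverse complement TTCCCA.
Notch1, chr2:26503773-26504072, minus strand: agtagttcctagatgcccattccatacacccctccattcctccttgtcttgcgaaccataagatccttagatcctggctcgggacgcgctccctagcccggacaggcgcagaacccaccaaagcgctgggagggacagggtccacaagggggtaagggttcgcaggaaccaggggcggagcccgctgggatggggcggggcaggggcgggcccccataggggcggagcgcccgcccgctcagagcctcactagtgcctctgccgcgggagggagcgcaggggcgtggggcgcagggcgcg
Jag1, chr2:137116471-137116770, minus strand: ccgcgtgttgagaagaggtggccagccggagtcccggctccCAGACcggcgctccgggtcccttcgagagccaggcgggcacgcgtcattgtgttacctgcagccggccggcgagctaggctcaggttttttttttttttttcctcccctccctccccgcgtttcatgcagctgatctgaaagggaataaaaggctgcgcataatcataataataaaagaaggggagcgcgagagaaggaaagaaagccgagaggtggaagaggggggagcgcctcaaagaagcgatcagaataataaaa
Nrarp, chr2:25180508-25180807, plus strand: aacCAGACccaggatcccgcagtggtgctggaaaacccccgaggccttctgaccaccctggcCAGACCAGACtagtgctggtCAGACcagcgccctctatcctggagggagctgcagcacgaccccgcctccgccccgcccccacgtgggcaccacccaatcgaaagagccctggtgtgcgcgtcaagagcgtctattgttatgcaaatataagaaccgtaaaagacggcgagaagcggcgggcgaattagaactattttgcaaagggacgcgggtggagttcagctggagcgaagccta
The Notch1 window held neither motif. In the annotation used for gene positions, Notch1 extends upstream of this window, to 26516663, so other starts of Notch1 were not searched. The Jag1 window held 1 SMAD box, at −209 from the start. The Nrarp window held 4, at −247, −188, −183 and −168, of which those at −188 and −183 abut without overlap. None of these 3 windows held the RBPJ core. Among the 7 members with a promoter in the table, the Notch3 window held 2 SMAD boxes and the Hey2 window 2 RBPJ cores, and those of Notch2 and Jag2 held neither. Of all 32851 promoters of 300 bases, 49.6% held a SMAD box and 25.6% an RBPJ core, so that a match is common, and it describes letters and not binding. None of the 7 windows of members held both motifs.

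On GRCm38, Notch1 lies on chromosome 2 from 26457903 to 26516663, Jag1 on chromosome 2 from 137081456 to 137116644, Nrarp on chromosome 2 from 25180758 to 25183339 and Hes1 on chromosome 16 from 30064384 to 30067796. Notch2 lies on chromosome 3 from 98013527 to 98150361 and Notch3 on chromosome 17 from 32120820 to 32166852. The kit reads the 3′ ends of polyadenylated transcripts. In the annotation the antisense genes 0610009E02Rik and Gm13568 overlap exons of Notch1 at its 3′ end. The antisense genes Gm38287 and Gm17276 overlap exons of Nrarp and of Notch3, and Gm42820 overlaps exons of Notch2 on the same strand. The use of strand in counting is not stated, so reads of Notch1, Notch2, Notch3 and Nrarp cannot be told apart from reads of these overlapping genes.

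Libraries held 12809857 to 17714828 counts, and 3 counts corresponded to 0.165 to 0.239 CPM, which are counts brought to a common library size, here with TMM scaling. The reads had no molecular identifiers, so floors and count intervals cover counting error only. Pdcd5 was at 65.1 to 73.5 CPM in the 6 NC and NC + TGF-β1 libraries and at 20.0 to 26.3 CPM in the 6 knockdown libraries. Of the 8 club cell markers, 1 passed the filter on low counts: Aldh1a1. Scgb3a2 and Cyp2f2 had 0 counts in every library and Scgb1a1, the defining secretoglobin, had 1 count in all 12, so the defining markers of the labelled cell type were absent. NC + TGF-β1 replicate 2 stood apart from the other 2 libraries of its group, with a chi-square per degree of freedom of 33.9 and 61.0 against 11.7 between those 2. SiPdcd5 replicate 1 stood apart in the same way, at 34.2 and 26.3 against 10.1. The log2 fold changes of the members between 2 groups that hold such a library are given with and without it.

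Of the 10 members, 6 passed the filter and were tested among 12425 genes, namely Notch1, Notch2, Notch3, Jag1, Hes1 and Nrarp. Jag2, Hey1, Hey2 and Heyl were too low to test. Nrarp passed only through knockdown libraries, with and without TGF-β1, in which it was high, so its passing and its direction are not independent. In the 4 comparisons between 2 groups, TGF-β1 lowered Notch1, and knockdown of Pdcd5 lowered Jag1 and Notch1. Without TGF-β1, the knockdown call was kept under 4 of 14 alternatives for Notch1 and 11 of 14 for Jag1. With TGF-β1, it was kept under 12 of 14 for Notch1 and 14 of 14 for Jag1. Nrarp was called higher after knockdown without TGF-β1, with its direction set by the filter. Hes1 was called lower in a contrast averaged over both treatments and in none of the 4.

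**Figure D1:**
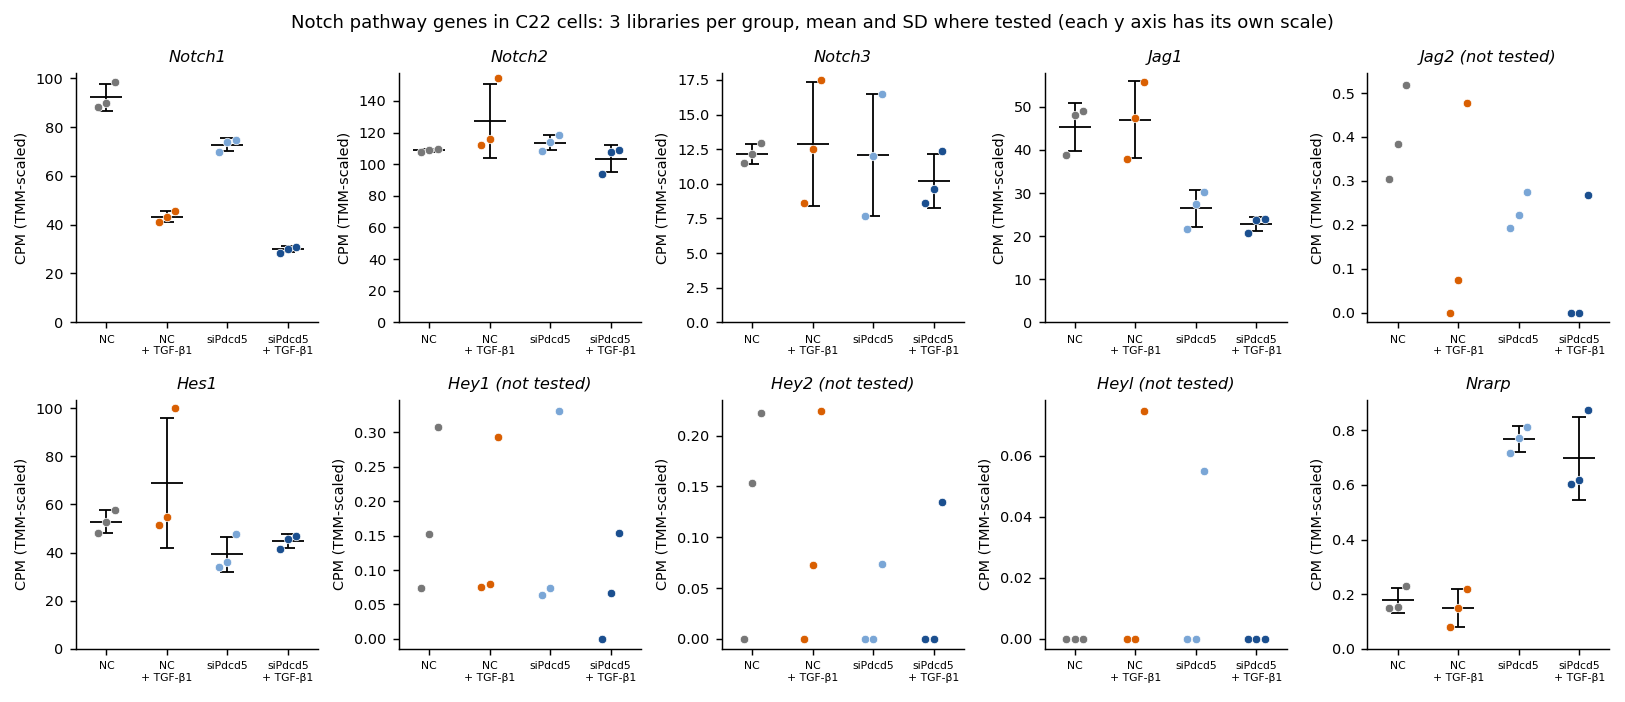
CPM on TMM-scaled library sizes for the 10 genes in each of the 12 libraries, with points for libraries and, for the 6 genes tested, a bar for the group mean with its SD. Notch1 falls from about 92.2 to 43.2 CPM with TGF-β1 in NC cells, and Jag1 separates by knockdown. Nrarp separates too, which is bound to the filter that it passed only through knockdown libraries. Of all genes tested, 23.1% separate by knockdown without TGF-β1 and 18.9% with it. Jag2, Hey1, Hey2 and Heyl stay near 0.

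Notch1, a receptor of airway epithelium, was at 98.5, 90.0 and 88.1 CPM in the NC libraries and at 45.5, 41.0 and 43.1 CPM in the NC + TGF-β1 libraries. In the siPdcd5 libraries it was at 73.8, 74.8 and 69.7 CPM, and in the siPdcd5 + TGF-β1 libraries at 30.1, 28.5 and 30.9 CPM. The 4 groups did not overlap, and their order from high to low was NC, siPdcd5, NC + TGF-β1 and siPdcd5 + TGF-β1. The means were 92.2 ± 5.56, 72.8 ± 2.69, 43.2 ± 2.25 and 29.8 ± 1.23 CPM (SD, n = 3 each) in that order. The step between siPdcd5 and NC + TGF-β1 was not tested. Such separation was common: of all genes tested, 29.6% did not overlap between groups after TGF-β1 in NC cells, 36.1% after TGF-β1 in siPdcd5 cells, 23.1% after knockdown without TGF-β1 and 18.9% after knockdown with it.

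TGF-β1 lowered Notch1, with log2 values of −1.09 in NC cells (standard error 0.087, adjusted p = 7.36e-07) and −1.29 in siPdcd5 cells (standard error 0.089, adjusted p = 2.01e-07), by the quasi-likelihood test of edgeR (Benjamini-Hochberg adjustment). Notch1 was 1 of 6 members called lower in each of these comparisons, beside 6.77% of all genes tested in NC cells and 7.61% in siPdcd5 cells. No member was called higher by edgeR, limma-trend or DESeq2, and none was higher at an unadjusted edgeR p under 0.05. Without NC + TGF-β1 replicate 2 the value in NC cells was −1.06, and without siPdcd5 replicate 1 that in siPdcd5 cells was −1.27. Averaged over both siRNAs, a contrast chosen after seeing the data, it was −1.19 (standard error 0.062, adjusted p = 3.54e-09, same test), and Notch1 was again the member called, beside 13% of all genes called lower.

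Knockdown of Pdcd5 also lowered Notch1, with log2 values of −0.34 in untreated (standard error 0.086, adjusted p = 0.0425) and −0.54 in TGF-β1-treated cells (standard error 0.089, adjusted p = 0.00653), by the same edgeR test and adjustment. The first call is near the threshold: it was kept under 4 of 14 alternatives, was lost whenever a library of either group was left out, and had adjusted p = 0.193 without NC replicate 1. Without siPdcd5 replicate 1 its value was −0.36 (adjusted p = 0.0816). The second call was kept under 12 of 14, and its value was −0.57 without NC + TGF-β1 replicate 2. Averaged over both treatments the value was −0.44 (standard error 0.062, adjusted p = 5.64e-04, same test). The effect of TGF-β1 on Notch1 did not differ detectably between NC and siPdcd5 cells, with a difference of −0.19 on the log2 scale (95% confidence interval −0.46 to 0.07, edgeR adjusted p = 0.958).

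Markers of other cell types moved with the same groups. Summed over the fibroblast list, of which 4 of 5 genes passed the filter, the level was 2740 to 2901 CPM in NC, 1853 to 2324 in siPdcd5, 5927 to 6592 in NC + TGF-β1 and 4526 to 4714 in siPdcd5 + TGF-β1, while Lum, a defining gene of that list, had 1 count in all libraries. Nearly all of that sum was Col1a1. Of the basal list 1 of 5 genes passed, Krt14, and the summed level was 10.4 to 12.4, 3.40 to 4.96, 169 to 210 and 75.2 to 88.5 CPM in the same order, with at most 3 counts of Trp63 or Krt5 in any library. The club list, carried by Aldh1a1, summed to 547 to 556, 293 to 327, 231 to 245 and 156 to 166 CPM. The ciliated list, of which 2 of 9 genes passed, summed to at most 21.4 CPM in a library. Of the goblet list 0 of 5 genes passed, of the neuroendocrine list 0 of 4, and of the AT2, endothelial and immune lists 1 of 5 each. The part of these lists in the results on Notch1 and Jag1 was not tested, and in bulk RNA fewer cells of a type and less RNA per cell cannot be told apart.

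Notch2, the other broadly used receptor of airway epithelium, passed the test in none of the 4 comparisons. It was at 108, 109 and 109 CPM in NC and 112, 154 and 116 CPM in NC + TGF-β1, where the high library is replicate 2. It was at 114, 118 and 109 CPM in siPdcd5 and 109, 93.8 and 108 CPM in siPdcd5 + TGF-β1. Its log2 fold change with TGF-β1 was 0.23 (95% confidence interval −0.02 to 0.47) in NC cells, or 0.07 without NC + TGF-β1 replicate 2, and −0.13 (−0.38 to 0.11) in siPdcd5 cells, also without siPdcd5 replicate 1. After knockdown it was 0.06 (−0.18 to 0.31) without TGF-β1, again also without that library, and −0.30 (−0.55 to −0.06, adjusted p = 0.237 by edgeR with Benjamini-Hochberg adjustment) with it, and the latter was −0.14 without NC + TGF-β1 replicate 2.

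Because Notch1 and Notch2 are read in the same library, their ratio of counts does not depend on how libraries are scaled. There were 0.913, 0.825 and 0.806 Notch1 reads per Notch2 read in NC and 0.406, 0.266 and 0.372 in NC + TGF-β1. In siPdcd5 the ratio was 0.647, 0.633 and 0.642 and in siPdcd5 + TGF-β1 it was 0.277, 0.303 and 0.287. The groups with and without TGF-β1 did not overlap on this ratio for either siRNA, nor did siPdcd5 and NC, whereas siPdcd5 + TGF-β1 and NC + TGF-β1 overlapped at NC + TGF-β1 replicate 2, with 0.266. Such a ratio shows unequal change of the 2 receptors and not that either stayed the same.

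**Figure D2:**
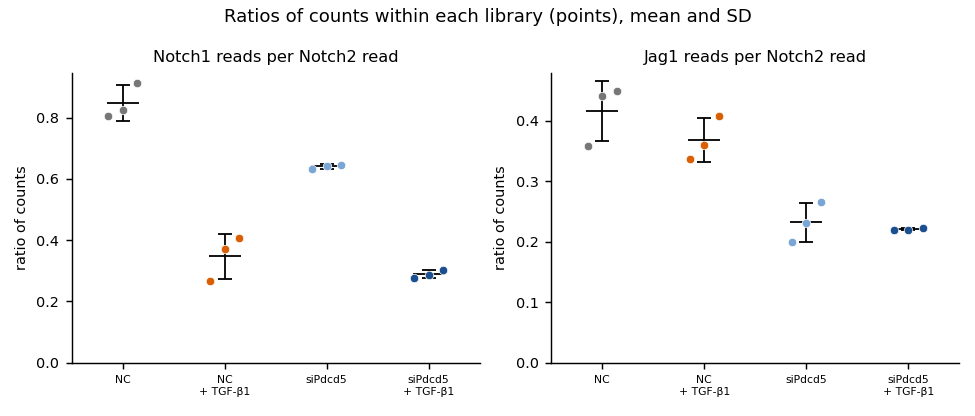
Counts of Notch1 (left) and of Jag1 (right) divided by those of Notch2 in each of the 12 libraries, with points for libraries and a bar for the group mean with its SD (n = 3). The mean Notch1 ratio is 0.848 in NC, 0.641 in siPdcd5, 0.348 in NC + TGF-β1 and 0.289 in siPdcd5 + TGF-β1, and the Jag1 ratio falls with knockdown, from 0.416 to 0.232 without TGF-β1.

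Notch3, a receptor better known from smooth muscle and pericytes, was low and variable. It ranged from 11.5 to 12.9 CPM in NC, 7.66 to 16.5 in siPdcd5, 8.63 to 17.5 in NC + TGF-β1 and 8.60 to 12.4 in siPdcd5 + TGF-β1. All 4 groups overlapped. Its log2 fold changes lay between −0.33 and 0.08 in the 4 comparisons, with the intervals reaching at the widest from −0.92 to 0.66, and none passed the test. Without NC + TGF-β1 replicate 2 its value was −0.21 after TGF-β1 in NC cells (0.08 with it) and −0.05 after knockdown with TGF-β1 (−0.33 with it). Without siPdcd5 replicate 1 it was 0.06 after TGF-β1 in siPdcd5 cells (−0.23 with it) and −0.32 after knockdown without TGF-β1 (−0.03 with it).

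Jag1, the Jagged ligand that passed the filter, was at 38.8, 48.9 and 48.2 CPM in NC and 37.8, 55.8 and 47.4 CPM in NC + TGF-β1. It was at 30.2, 27.3 and 21.7 CPM in siPdcd5 and 23.9, 20.8 and 23.7 CPM in siPdcd5 + TGF-β1. Every knockdown library lay below every NC library, while the groups with and without TGF-β1 overlapped under each siRNA. Of all genes tested, 23.1% separated between knockdown and NC without TGF-β1 and 18.9% with it.

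The means of Jag1 were 45.3 ± 5.67 CPM in NC and 26.4 ± 4.32 in siPdcd5, and 47.0 ± 9.02 in NC + TGF-β1 and 22.8 ± 1.72 in siPdcd5 + TGF-β1 (SD, n = 3 each). Knockdown lowered Jag1, with log2 values of −0.78 in untreated (standard error 0.156, adjusted p = 0.0127) and −1.04 in TGF-β1-treated cells (standard error 0.158, adjusted p = 0.00304), by the quasi-likelihood test of edgeR (Benjamini-Hochberg adjustment). Without siPdcd5 replicate 1 the first was −0.89, and without NC + TGF-β1 replicate 2 the second was −0.90. The first call was lost without NC replicate 2 (adjusted p = 0.0713), without NC replicate 3 (adjusted p = 0.0638) and without siPdcd5 replicate 3 (adjusted p = 0.0688), and the second was kept under all 14 alternatives. Averaged over both treatments the value was −0.91 (standard error 0.111, adjusted p = 1.76e-04, same test).

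The log2 fold change of Jag1 after TGF-β1 was 0.05 in NC cells (95% confidence interval −0.27 to 0.38) and −0.21 in siPdcd5 cells (−0.55 to 0.13), neither past the test. Without NC + TGF-β1 replicate 2 the first was −0.09, and without siPdcd5 replicate 1 the second was −0.10. The effect of knockdown on Jag1 with TGF-β1 minus that without was −0.26 (−0.74 to 0.21). Per Notch2 read, there were 0.359, 0.449 and 0.441 Jag1 reads in NC, 0.265, 0.231 and 0.200 in siPdcd5, 0.337, 0.361 and 0.409 in NC + TGF-β1 and 0.219, 0.222 and 0.220 in siPdcd5 + TGF-β1. On this ratio too the knockdown libraries all lay below the NC libraries. Jag2, the other Jagged ligand, had 16, 11, 7 and 4 counts in total over the 3 libraries of NC, siPdcd5, NC + TGF-β1 and siPdcd5 + TGF-β1, and at most 7 in a library. A change in Jag2 was not detectable at this depth.

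**Figure D3:**
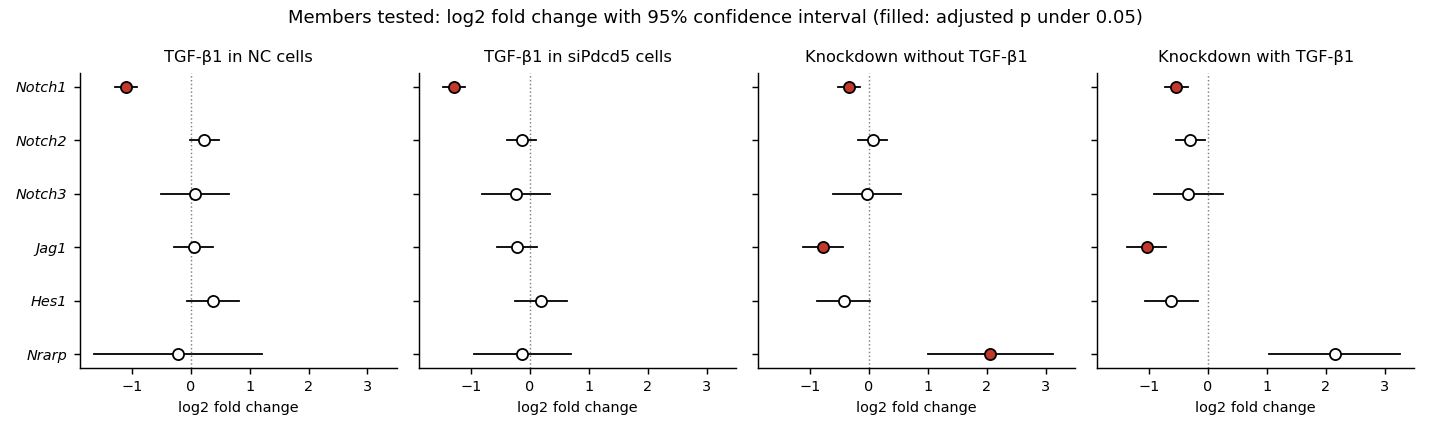
The log2 fold change of the 6 members tested in each of the 4 comparisons (x axis), with lines for 95% confidence intervals and filled points for an adjusted p under 0.05. Notch1 lies at −1.09 and −1.29 after TGF-β1, and Notch1 and Jag1 lie below 0 after knockdown. Nrarp lies at 2.06 and 2.15 after knockdown, a direction fixed by the filter, which it passed only through knockdown libraries.

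Among the targets, Nrarp was near the floor in NC cells and higher in knockdown cells. It had 3, 2 and 2 counts in the NC libraries and 1, 2 and 3 in those with TGF-β1. It had 11, 13 and 12 counts in the siPdcd5 libraries and 9, 8 and 13 in the siPdcd5 + TGF-β1 libraries. The knockdown libraries all lay above the NC libraries, with no overlap, and TGF-β1 groups overlapped. Separation by knockdown was seen in 23.1% of all genes tested without TGF-β1 and 18.9% with it. For Nrarp it is bound to the filter, which Nrarp passed only through knockdown libraries.

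Summed over libraries and scaled by depth, the ratio of Nrarp counts in siPdcd5 to NC was 4.32 (36 against 7 counts, 95% exact interval of counting error 1.90 to 11.5), and in siPdcd5 + TGF-β1 to NC + TGF-β1 it was 4.64 (30 against 6 counts, 1.90 to 13.6). The fitted log2 value was 2.06 in untreated (standard error 0.493, adjusted p = 0.0338) and 2.15 in TGF-β1-treated cells (standard error 0.518, adjusted p = 0.0554), by the quasi-likelihood test of edgeR (Benjamini-Hochberg adjustment). Since Nrarp passed the filter through knockdown libraries alone, the direction of these tests was fixed by the filter. They describe the counts and support no rise. The value was 2.02 without siPdcd5 replicate 1 in the first case and 2.14 without NC + TGF-β1 replicate 2 in the second. The first call was kept under 2 of 12 alternatives, with adjusted p from 0.0331 to 0.158, and the second under 0 of 12, with 0.0533 to 0.229. Averaged over both treatments it was 2.10 (standard error 0.357, adjusted p = 0.00235, same test). After TGF-β1 the value of Nrarp was −0.21 in NC cells (−0.20 without NC + TGF-β1 replicate 2) and −0.125 in siPdcd5 cells (−0.08 without siPdcd5 replicate 1), neither past the test.

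Hes1, the most general of the HES repressors, was at 48.1, 57.6 and 52.9 CPM in NC and 54.9, 100.3 and 51.6 CPM in NC + TGF-β1. It was at 47.6, 36.1 and 34.1 CPM in siPdcd5 and 47.0, 41.5 and 45.6 CPM in siPdcd5 + TGF-β1. Knockdown libraries lay below NC libraries at each treatment without overlap, with 47.6 and 48.1 CPM as the nearest pair, a separation seen in 23.1% of all genes tested without TGF-β1 and 18.9% with it, and NC + TGF-β1 replicate 2 stood far above the rest.

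The log2 fold change of Hes1 after knockdown was −0.43 (95% confidence interval −0.88 to 0.02, adjusted p = 0.347) without TGF-β1 and −0.62 (−1.07 to −0.18, adjusted p = 0.179) with it, by edgeR with Benjamini-Hochberg adjustment, so neither passed the test. Without siPdcd5 replicate 1 the first was −0.59, and without NC + TGF-β1 replicate 2 the second was −0.25. Averaged over both treatments, the contrast chosen after seeing the data, the value was −0.53 (standard error 0.148, adjusted p = 0.0430, same test), a call kept under 8 of 19 alternatives. It was −0.34 (adjusted p = 0.0201) without NC + TGF-β1 replicate 2 and −0.60 (adjusted p = 0.0229) without siPdcd5 replicate 1, by the same edgeR test. After TGF-β1 it was 0.38 (−0.06 to 0.83) in NC cells, or 0.01 without NC + TGF-β1 replicate 2, and 0.19 (−0.26 to 0.64) in siPdcd5 cells, or 0.36 without siPdcd5 replicate 1, neither past the test.

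The HEY targets, repressors related to HES1 and best known from the heart and vessels, were at or near the floor. Hey1 had 7, 8, 6 and 3 counts in total in NC, siPdcd5, NC + TGF-β1 and siPdcd5 + TGF-β1. Hey2 had 5, 1, 4 and 2 counts, and Heyl 0, 1, 1 and 0. No library held more than 6 counts of any of the 3, and no difference between groups was detectable at this depth.

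By comparison, knockdown without TGF-β1 called 2 of the 6 members tested lower and 1 higher, beside 2.54% of all genes lower and 0.901% higher. With TGF-β1 it called 2 lower and 0 higher, a count that was also 0 by limma-trend and DESeq2, with Nrarp as the 1 member higher at an unadjusted p under 0.05, beside 1.22% lower and 0.33% higher. Averaged over both treatments it called 3 lower and 1 higher, beside 5.13% lower and 2.58% higher. The member called higher was Nrarp each time, and since it passed the filter only through libraries in which it was high, nothing is read from these counts of 1. The median log2 fold change of the members was −0.18 without TGF-β1 and −0.43 with it, against 0.02 and −0.02 over all genes tested, and 0.07 and −0.17 with TGF-β1 in NC and in siPdcd5 cells, against 0.00 and −0.03. The comparisons share groups of libraries and are not independent of each other. The members were chosen with earlier results of these data known, and the 6 include Nrarp. Their counts and medians beside those of all genes are therefore descriptive only.

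For the interaction of TGF-β1 and knockdown, edgeR called 0 members and 0% of all genes, and 5.13% of all genes had an unadjusted p under 0.05. The member among these was Notch2, 1 of 6, with −0.36 (95% confidence interval −0.71 to −0.02, adjusted p = 0.951 by edgeR with Benjamini-Hochberg adjustment), which was −0.20 without NC + TGF-β1 replicate 2. DESeq2 called 15 genes and limma-trend called 0, and neither called a member.

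Across the 12 libraries the genes whose log2 CPM most resembled that of Notch1 among 9123 candidates were Ppl, which encodes the junctional protein periplakin, and Lpl, lipoprotein lipase, each with a Pearson r of 0.985. Ppl had group means of 93.4, 64.3, 34.8 and 22.8 CPM in NC, siPdcd5, NC + TGF-β1 and siPdcd5 + TGF-β1. It shared the order of groups with Notch1, which is bound to its choice by r over the same libraries. For Jag1 they were Itm2b (r = 0.973) and Sun2 (r = 0.953), and for Nrarp Rnaseh2c (r = 0.932) and Gpd2 (r = 0.929). Between members, the r of Jag1 was 0.771 with Hes1 and −0.865 with Nrarp. The r values of Nrarp are bound to the filter, which it passed only through knockdown libraries. All these r values describe 12 libraries in 4 groups that share treatments, and they carry no test.

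The other machinery of the pathway was read from a list of 50 genes, of which 40 passed the filter and 13 were called in at least 1 of the 4 comparisons. After TGF-β1, 4 rose and 2 fell in NC cells, which is 15% of the 40 against 15.3% of all genes, and 2 rose and 5 fell in siPdcd5 cells, 17.5% against 16.1%. After knockdown 2 rose and 2 fell without TGF-β1, 10% against 3.44%, and 0 rose and 1 fell with it, 2.5% against 1.55%. For the interaction edgeR called 0 of 40, and 5 of the 40 had an unadjusted edgeR p under 0.05, beside 5.13% of all genes tested. The median log2 fold change of the 40 was 0.03, −0.10, 0.02 and −0.08 in the 4 comparisons in this order.

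Among the ubiquitin ligases, Neurl1b, a Neuralized protein that acts on ligand endocytosis, had the lowest log2 fold changes with TGF-β1 among those called. Neurl1b ranged from 14.3 to 18.1 CPM in NC and 4.22 to 4.97 in NC + TGF-β1. In siPdcd5 it ranged from 15.8 to 17.2 and in siPdcd5 + TGF-β1 from 5.71 to 6.58. Libraries with and without TGF-β1 did not overlap under either siRNA, as for 29.6% of all genes tested in NC and 36.1% in siPdcd5 cells. The log2 fold change of Neurl1b was −1.78 (standard error 0.147, adjusted p = 9.42e-07) in NC cells and −1.46 (standard error 0.141, adjusted p = 5.10e-06) in siPdcd5 cells, by the edgeR test with Benjamini-Hochberg adjustment.

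Fbxw7, which marks the intracellular domain of Notch for degradation, rose with a log2 fold change of 0.78 in NC and 0.74 in siPdcd5 cells, from 91.8 ± 1.73 to 157 ± 9.84 CPM in the former (SD, n = 3). Dtx4, of the Deltex ligases, rose by 0.87 after TGF-β1 in NC cells and by 0.76 after knockdown without TGF-β1. Neurl1a rose by 0.73 in NC cells. After TGF-β1 in siPdcd5 cells, where neither was called, the log2 fold change was 0.34 for Dtx4 and 0.22 for Neurl1a. Dtx3 fell by 0.62 and Mib2, another ligase for ligands, by 0.35 on the log2 scale after TGF-β1 in siPdcd5 cells. In NC cells, where neither was called, the log2 fold change was −0.40 for Dtx3 and 0.15 for Mib2.

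Of the proteases, Furin rose by 0.83 in NC and 0.72 in siPdcd5 cells on the log2 scale, with a wide spread in NC + TGF-β1, of 104 to 217 CPM. Adam17 fell by 0.34 after TGF-β1 in NC cells (−0.09 in siPdcd5 cells, not called). Psen2, a catalytic subunit of γ-secretase, fell by 0.43 in siPdcd5 cells (−0.31 in NC cells, not called). Of the nuclear partners, the Groucho corepressor Tle4 fell with knockdown by 0.59 without TGF-β1 and by 0.65 with it (adjusted p = 0.0439 and 0.0494, edgeR with Benjamini-Hochberg adjustment). Maml2, a Mastermind coactivator, fell by 0.71 after knockdown without TGF-β1, from 49.4 ± 6.32 to 30.1 ± 3.89 CPM (SD, n = 3). Tle3 fell by 0.58 after TGF-β1 in siPdcd5 cells (−0.27 in NC cells, not called). Rfng, a Fringe glycosyltransferase that modifies the receptors, rose by 0.46 after knockdown without TGF-β1 (adjusted p = 0.0437, same edgeR test). The calls of Tle4, Rfng and Psen2, the last with adjusted p = 0.0404 by this test, are near the threshold. Calls of these other pathway genes were not checked under the alternatives or without the libraries that stood apart.

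**Figure D4:**
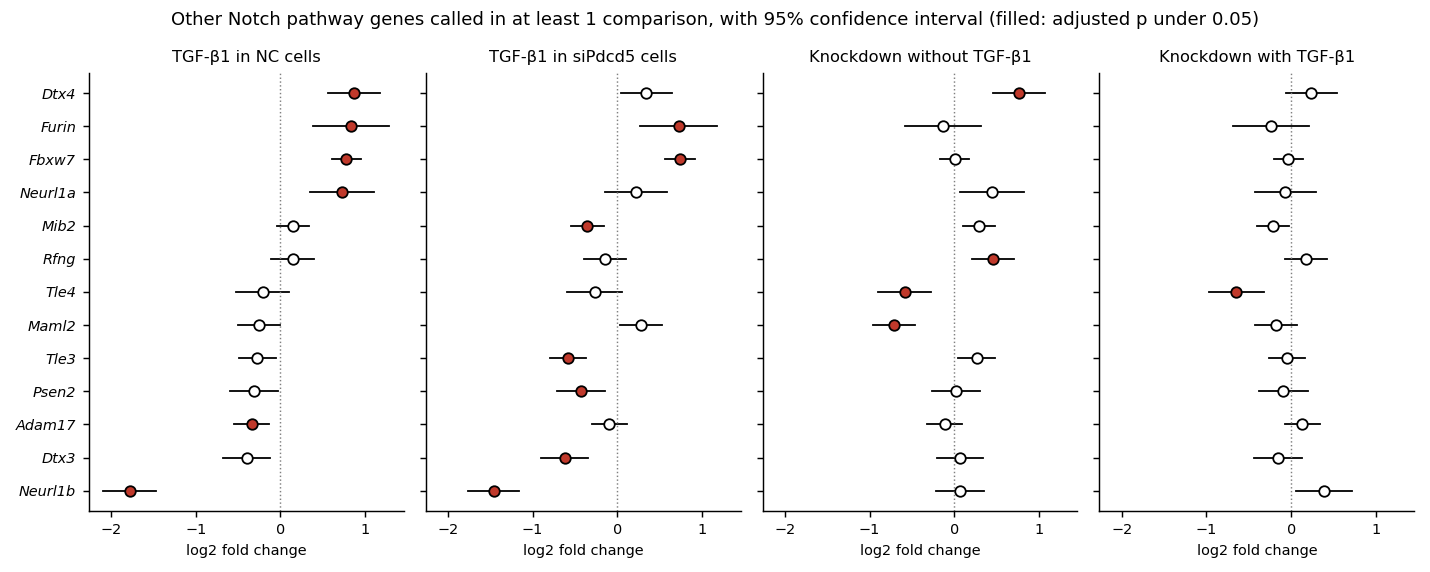
The log2 fold change (x axis) of the 13 other pathway genes called in at least 1 of the 4 comparisons, with lines for 95% confidence intervals and filled points for an adjusted p under 0.05. Neurl1b lies lowest after TGF-β1, at −1.78 and −1.46, and Tle4 is the only one of the 13 filled in both knockdown panels.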

How the data were processed

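RNA of 12 C22 libraries was measured with the QuantSeq 3′ kit. The authors aligned reads with Bowtie2 to mm10 per the labels, used Bedtools to count both unique and multiple alignments for each gene, and deposited the counts as whole numbers, not normalized. Annotation and use of strand are not given in the sources used here. Groups came from the labels. Genes were filtered with edgeR's default (12425 kept of 23282), scaled by TMM, and a model of the 4 groups was fitted to all 12 libraries with edgeR 4.0.16 in R 4.3.3. The quasi-likelihood test was two-sided, with Benjamini-Hochberg adjustment over all genes tested and a threshold of 0.05. The fit was tested on simulated counts. The alternatives were DESeq2 1.42.0, limma-trend after quantile normalization (limma 3.58.1), upper-quartile factors, no filter, at least 10 counts in every library, removal of Rn45s and Malat1, the 6 libraries compared, a replicate block and each library left out. The text names all members, the pathway genes called in at least 1 comparison and, for each member called, the 2 genes most correlated with it among genes whose mean log2 CPM was 3 or more (prior count 2). The averaged contrasts, and the libraries and promoters singled out, were chosen after values were seen. Members and lists were chosen with earlier results of these data known. Promoters are from RefSeq (7 of 10 members matched), positions from GENCODE on GRCm38.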

Additional observations from a re-analysis of the deposited data

How the results depend on the processing

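After knockdown without TGF-β1, 3 members were called, but 1 (Jag1) with quantile normalization and limma-trend, with no filter on low counts and with only the 6 libraries compared, and 0 to 1 with a library left out. After knockdown with TGF-β1, 2 were called, but 1 (Jag1) with only the 6 libraries compared, and 1 to 2 with a library left out. The labels number the replicates in each group. After the group mean of each gene's log2 CPM was subtracted, same-numbered libraries of compared groups had an r of −0.324 to 0.166. With 3 libraries in a group, such values cannot decide whether the numbers pair the samples. With a replicate block, 1 member (Jag1) was called after knockdown without TGF-β1, 2 with it, 1 after TGF-β1 under each siRNA and 0 for the interaction. The Notch1 call after TGF-β1 was kept under all 14 alternatives in NC cells and all 14 in siPdcd5 cells. Directions turned for values that had not passed the test. With a library left out, the log2 fold change after TGF-β1 in NC cells ran from −0.0875 to 0.187 for Jag1, −0.57 to 0.0615 for Nrarp and −0.21 to 0.31 for Notch3. That of Notch3 ran from −0.48 to 0.0631 after TGF-β1 in siPdcd5 cells and −0.32 to 0.22 after knockdown without TGF-β1. The interaction ran from −0.37 to 0.18 for Hes1 and −0.19 to 0.44 for Nrarp. Averaged over siRNAs, the effect of TGF-β1 ran from −0.0333 to 0.0892 for Notch2, which was −0.00913 with quantile normalization, and −0.22 to 0.0680 for Notch3. The cause was not tested. With a minimum of 10 counts in every library Nrarp is not tested. Counts of 3 or fewer in every NC and NC + TGF-β1 library limit Nrarp, and counts under 8 in every library limit Jag2 and the HEY genes.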
